A study of Rattus norvegicus with 18 samples.

Results

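Chronic immobilization stress was compared with handling in the rat amygdala on 6 of the 18 arrays of the study. The 3 arrays titled as stress amygdala form the stress group and the 3 titled as control amygdala form the handled group. The remaining arrays were hippocampus and cortex under the same treatments. Stress is labelled as chronic immobilization stress, in which an animal is held still repeatedly, and the controls as handled without stress. No source used here states the strain, sex or age of the rats or how long they were immobilized. The titles number the arrays of a group 1 to 3, but nothing says whether they came from separate animals, pools or 1 extract, and a p-value therefore weighs a difference against array-to-array scatter that could be purely technical.

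The amygdala is a group of nuclei in the temporal lobe that assigns threat value to sensory events and drives fear and anxiety. Its basolateral nuclei are built mostly from glutamatergic neurons that resemble cortical pyramidal cells, and its central nucleus from GABAergic neurons that share many genes with the neighbouring striatum. Stress raises corticosterone, which acts on gene transcription through the mineralocorticoid and glucocorticoid receptors. In rats, repeated immobilization is known for lasting anxiety and for growth of dendrites and spines in the basolateral amygdala.

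Each array gave an intensity per probe set, a group of short probes for 1 transcript or part of it. Changes are differences of log2(intensity + 16), stress minus handled, with the standard error from limma, and a probe set is called where its adjusted p is under 0.05. That error pools the scatter of all 18 arrays, hippocampus and cortex included, and can differ from the scatter among amygdala arrays. The 6 arrays had medians of 52.8 to 56.4. Of 14 tested amygdala markers, 12 were called higher in handled amygdala than in handled hippocampus and 1 lower, where 15.7% and 14.0% of all genes were. Against handled cortex, 7 were called higher and 3 lower, where 7.67% and 7.06% of all genes were. A further label field names the amygdala for all 18 arrays, so the titles set the groups. The control probe sets for hexokinase read 1.19, 1.32 and 1.19 log2 units more at the 3′ than at the 5′ end on the stress arrays, against 0.903, 0.843 and 0.739 on the handled arrays, and did not overlap. The same measure for beta-actin averaged 2.15 ± 0.24 on stress arrays and 2.07 ± 0.08 on handled arrays, and that for GAPDH 0.448 ± 0.076 and 0.450 ± 0.044 (SD, n = 3 each). The added dap control RNA averaged 8.37 ± 0.09 log2 units on stress arrays and 8.94 ± 0.25 on handled arrays. Stress minus handled, its 5′ probe sets changed by -0.85 and -0.71 and its 3′ ones by -0.52 and -0.32. The added thr RNA changed by -0.73 and -0.68 at 5′ and by -0.44 and -0.31 at 3′. The added phe RNA went the other way, with -0.34 and -0.31 at 5′ against -0.58 and -0.42 at 3′. The added lys RNA was mixed, with -0.037 and -0.38 at 5′ against -0.50 and 0.15 at 3′.

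Of 18625 probe sets tested, 447 were called, or 2.4%. Decreases made up most of the calls: 85 probe sets were higher (0.456%) and 362 lower (1.94%), with median changes of 0.51 and -0.61. The excess of decreases was not seen in every count: at an unadjusted p under 0.05, 1163 probe sets were higher and 1382 lower, and of 10256 genes taken by their brightest probe set 728 were higher and 582 lower. They named 310 genes, of which 61 had a higher and 251 a lower probe set, 2 having both. Changes were mostly modest, and 7 probe sets rose and 28 fell by at least 2-fold on the offset scale. The stress and handled arrays did not overlap for 443 of the called probe sets, where 16.6% of all tested probe sets did not overlap. Of the 447 called probe sets, 113 had no single gene symbol. Among these were the 2 largest decreases of all. One had intensities of 844, 602 and 1860 on stress arrays against 4066, 4224 and 5744 on handled arrays (log2 change -2.21 ± 0.32), and the other had 3399, 1958 and 4602 against 8100, 7937 and 9895 (-1.45 ± 0.22). The number of calls depended on single arrays: there were 197 without handled array 3 (190 of them among the 447), 284 without stress array 2 (246), and 186 (183) with the spread estimated from amygdala arrays alone (6 arrays). Handled array 3 was the brightest handled array for 71.8% of the called decreases and for 33.7% of all tested probe sets.

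**Figure D1:**
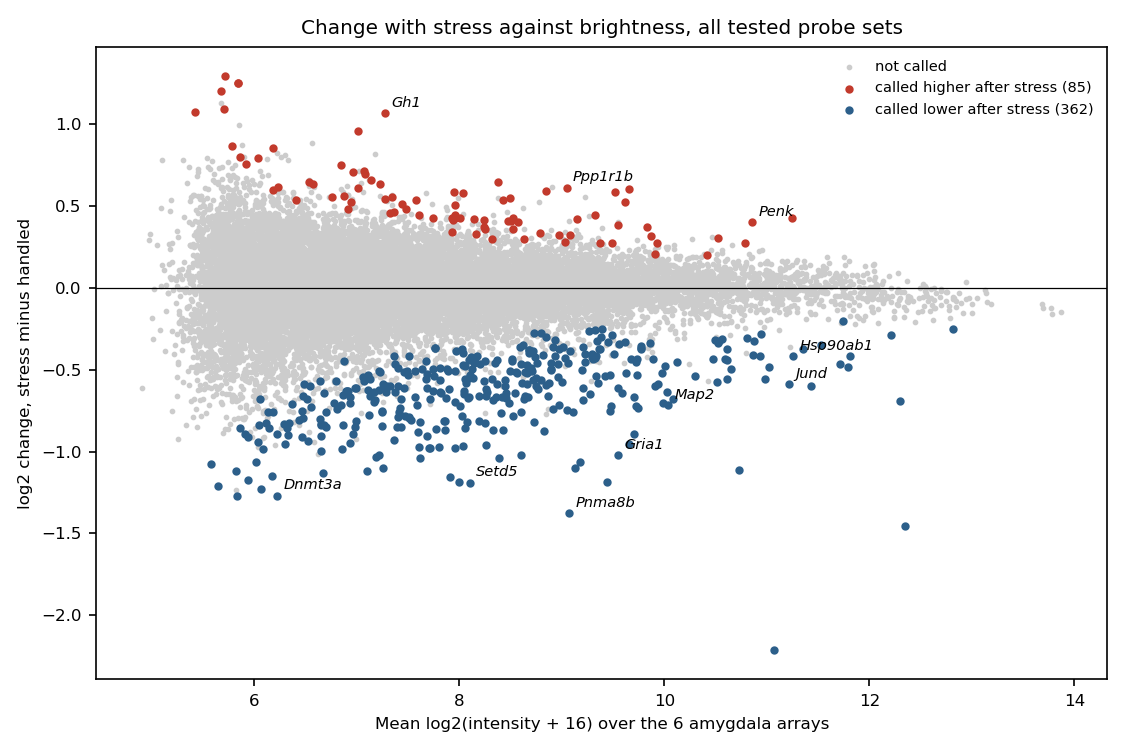
Each point is a tested probe set, with its mean log2(intensity + 16) over the 6 amygdala arrays on the x axis and its log2 change, stress minus handled, on the y axis. The 362 probe sets called lower (blue) extend to bright transcripts, whereas the 85 called higher (red) hold the largest increases at the dim end; selected genes are named.

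Among called probe sets with a mean of at least 100 in the brighter group and no overlap, the largest increases included genes of hormone, ion channel and dopamine signalling. Gh1, which encodes growth hormone, had 196, 230.2 and 202 on stress arrays against 103, 99.1 and 73.6 on handled arrays. All 3 stress arrays were brighter than every handled array (log2 change 1.07 ± 0.17, adjusted p = 0.000804). Scn4b, an auxiliary subunit of voltage-gated sodium channels that is abundant in striatal neurons, had 154, 159 and 181 on stress arrays against 84.4, 64.1 and 83.0 on handled arrays. Its groups were equally well separated (log2 change 0.96 ± 0.12, adjusted p = 7.47e-05), and both genes kept their call in every alternative setting run, 16 for Scn4b and 15 for Gh1, which was too dim for the 60th-percentile filter. Gne, the enzyme that starts sialic acid synthesis, had 146, 143 and 143 on stress arrays against 89.6, 92.5 and 65.9 on handled arrays (log2 change 0.71 ± 0.14, adjusted p = 0.00562), a call that was lost without handled array 3. Ppp1r1b, which encodes the phosphatase inhibitor DARPP-32 of dopamine-responsive neurons, had 560.0, 689 and 678 on stress arrays against 379, 442 and 419 on handled arrays. Its arrays did not overlap and it was called in all 16 settings (log2 change 0.61 ± 0.11, adjusted p = 0.00303). Cdc73, a subunit of the transcription elongation complex Paf1, rose by 0.58 ± 0.10, and Lrrc8b, a subunit of volume-regulated anion channels, by 0.59 ± 0.11. Rtn4r, the receptor for the myelin growth inhibitor Nogo, rose by 0.64 ± 0.16, Trappc5, a tethering factor of vesicle traffic, by 0.55 ± 0.12, Ints6l, of the Integrator complex family, by 0.61 ± 0.15, and Colgalt1, which glycosylates collagen, by 0.56 ± 0.15. The Rtn4r and Colgalt1 calls were lost without stress array 2 or 3, and those of Trappc5 and Ints6l without handled array 2 or 3, among other arrays. Rtn4r and Ints6l each had a brighter probe set that was not called, with log2 changes of 0.18 and 0.094. For Trappc5 and Colgalt1 the brightest uncalled probe set was dimmer and changed by 0.12 and 0.14.

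**Figure D2:**
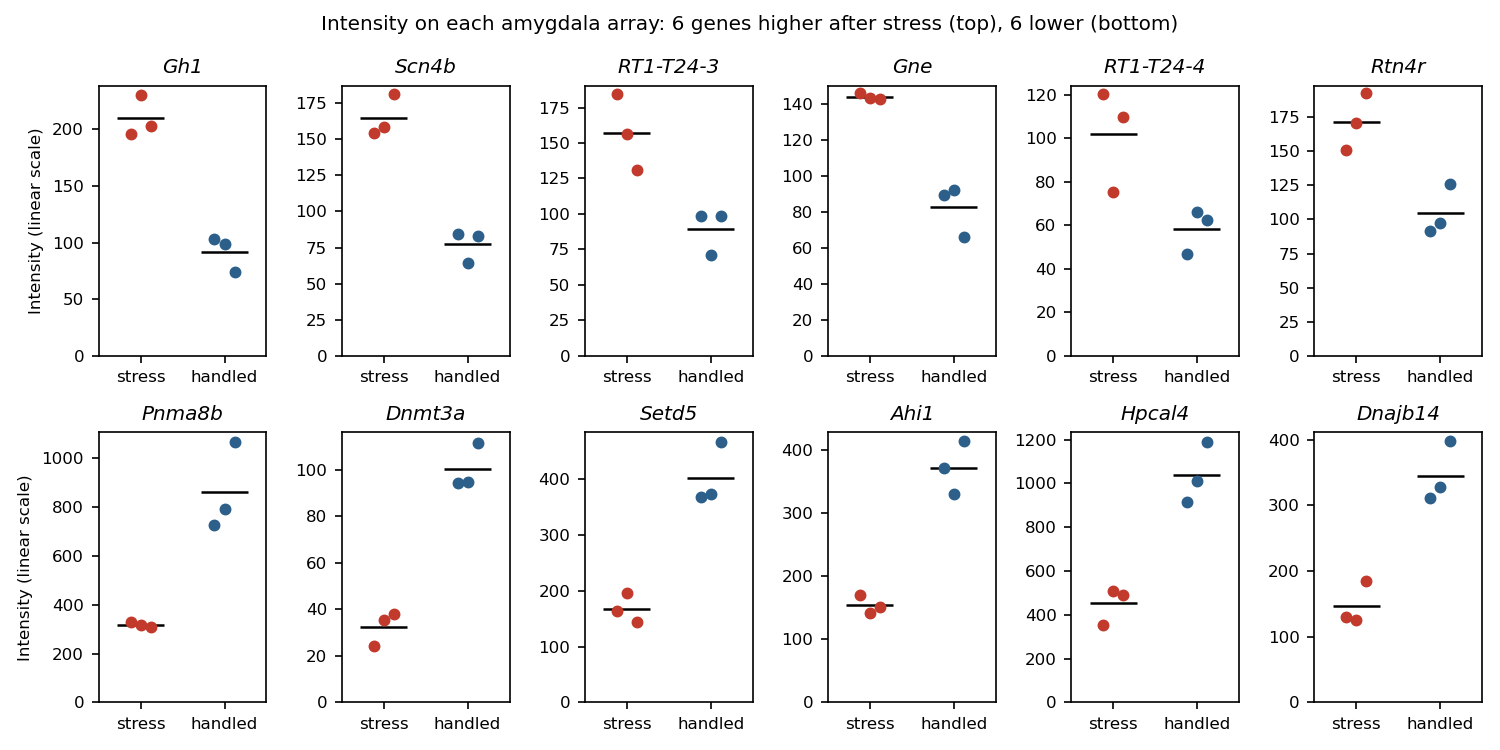
Intensity on a linear scale for each of the 3 stress (red, left) and 3 handled (blue, right) amygdala arrays, with bars at the group means, for the 6 genes with the largest increases (top) and the 6 with the largest decreases (bottom) among called genes with a mean of at least 100 in the brighter group and no overlap. Their choice required that stress and handled arrays do not overlap.

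To show sequence beside these values, promoters (250 bases before to 50 after the annotated start) were read from RefSeq on build GRCr8, and 3 exact motifs were searched on both strands: the E-box CACGTG read by clock factors, the TGTTCT core of the glucocorticoid response element, and the cyclic AMP response element TGACGTCA. TGTTCT was in 20.1% of 27457 promoters of the build, in 11.7% of the 8588 found for tested genes, in 7 of 50 found for genes called higher and in 23 of 197 found for genes called lower. The element TGACGTCA was in 1.91% of all promoters and 3.31% of those of tested genes, against 1 of 50 and 7 of 197. Scn4b is shown because it rose most among the named genes whose promoter holds TGTTCT, read here on the opposite strand with its first base 11 bases before the start. It lies at chr8:54343623-54343922, plus strand, with the match in capitals.
Scn4b: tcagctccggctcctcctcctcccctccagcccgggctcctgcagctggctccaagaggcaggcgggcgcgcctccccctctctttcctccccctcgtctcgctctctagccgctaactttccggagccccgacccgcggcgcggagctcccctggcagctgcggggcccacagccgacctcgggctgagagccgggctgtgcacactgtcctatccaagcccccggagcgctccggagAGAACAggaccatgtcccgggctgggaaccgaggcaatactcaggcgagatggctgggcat

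Among called probe sets with 1 gene name and a mean of at least 100 in the brighter group, the largest decreases were in Pnma8b, a member of the paraneoplastic antigen family, which had 329, 317 and 308 on stress arrays against 727, 792 and 1068 on handled arrays (log2 change -1.38 ± 0.15, adjusted p = 1.5e-05). The chromatin enzyme genes Dnmt3a, a de novo DNA methyltransferase, and Setd5, a SET-domain protein, followed. Dnmt3a had 24.1, 35.5 and 38.0 on stress arrays against 94.2, 94.9 and 112 on handled arrays, a range near the floor of the array under stress (log2 change -1.27 ± 0.17, adjusted p = 0.00015). Setd5 had 164, 196 and 143 on stress arrays against 367, 373 and 467 on handled arrays on its brightest probe set (log2 change -1.19 ± 0.14, adjusted p = 3.62e-05). The neuronal calcium sensor Hpcal4 had 354, 510.1 and 492 on stress arrays against 916, 1012 and 1191 on handled arrays (log2 change -1.18 ± 0.13, adjusted p = 1.73e-05). Pnma8b, Setd5 and Hpcal4 were called in all 16 settings and Dnmt3a in the 15 run, as it was too dim for the 60th-percentile filter. Dnajb14, a co-chaperone of the endoplasmic reticulum, fell by 1.16 ± 0.14, Tlk1, a kinase acting in chromatin assembly, by 1.10 ± 0.15, Enc1, an actin-binding protein of neurons, by 1.04 ± 0.17, Fbxo15, an F-box protein, by 1.04 ± 0.18, and Traf6, a ubiquitin ligase of innate immune signalling, by 1.03 ± 0.15. All 5 kept their call in the 16 settings. Tlk1 and Enc1 each had a brighter probe set that was not called, with log2 changes of 0.11 and 0.066. For Dnajb14 and Traf6 the brightest uncalled probe set was dimmer and changed by -0.065 and -0.064. Those of Setd5, Pnma8b and Dnmt3a were also dimmer and changed by 0.19, -0.42 and -0.58.

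Ahi1, a protein of the ciliary transition zone, was lower on both of its tested probe sets. The first read 169.8, 142 and 152 on stress arrays against 370.4, 329.7 and 413 on handled arrays (log2 change -1.18 ± 0.12, adjusted p = 6.93e-06). The other read 284, 324 and 300.0 on stress arrays against 392, 397 and 736 on handled arrays (log2 change -0.66 ± 0.17, adjusted p = 0.0449), where handled array 3 stood well above the others. That call was lost in 10 of the 16 settings, among them those without handled array 3 and without any 1 of the 3 stress arrays. The Ahi1 promoter (chr1:17581781-17582080, plus strand) is shown because it holds 1 TGACGTCA, in capitals, with its first base 52 bases before the start.
Ahi1: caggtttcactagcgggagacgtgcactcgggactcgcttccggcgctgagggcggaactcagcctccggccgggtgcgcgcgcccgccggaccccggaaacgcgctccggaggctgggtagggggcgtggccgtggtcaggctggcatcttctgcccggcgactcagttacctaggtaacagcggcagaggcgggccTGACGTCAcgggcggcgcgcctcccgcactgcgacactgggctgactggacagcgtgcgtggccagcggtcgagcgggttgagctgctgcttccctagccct

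Genes with several tested probe sets often had called and uncalled ones side by side, and 102 of 218 called genes with several had all of them on 1 side of 0. Among 192 genes with a called decrease and more than 1 tested probe set, 5 had all of them called, namely Ahi1, Id2, Stox2, Sv2b and Xiap. In 106 genes the brightest uncalled probe set was brighter than the called one, and its median change was 0.0055, against -0.66 for the called probe sets. Part of that gap is built in, because one probe set was chosen for passing the test and the other for not passing. These uncalled probe sets were above 0 in 54 genes and below 0 in 52. Where the brightest uncalled probe set was the dimmer one (81 genes), the median changes were -0.064 and -0.51. Map2, a dendritic microtubule protein, illustrates it. One probe set had 792, 709 and 933 on stress arrays against 1384, 1251 and 1367 on handled arrays (log2 change -0.71 ± 0.10, adjusted p = 0.000358). The brighter one had 4522, 5247 and 4437 on stress arrays against 4623, 4521 and 5060.0 on handled arrays, and its groups overlapped (log2 change -0.0022 ± 0.069, adjusted p = 0.995). Likewise the brightest Hpcal4 probe set had 2221, 2193 and 2178 on stress arrays against 2059, 2166 and 2097 on handled arrays (log2 change 0.06 ± 0.064, adjusted p = 0.74), although 2 dimmer ones fell. Enc1 had a probe set at 3438, 3343 and 3358 on stress arrays against 3301, 3283 and 3099.9 on handled arrays, with a log2 change of 0.066 ± 0.051. The chaperone Hsp90ab1 fell by 0.42 ± 0.06 on one probe set and changed by -0.035 ± 0.057 on a brighter one. The 28 genes with a called increase and several tested probe sets had none with all called, and the 10 with a brighter uncalled probe set had medians of 0.56 for called and 0.078 for uncalled probe sets. Positions of the probe sets within transcripts were not analysed here. The hexokinase 3′ to 5′ difference was 0.40 log2 units larger in the stress group. The added dap and thr RNAs also fell more at 5′ than at 3′, while phe did the reverse. The part of such differences in these decreases was not tested.

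**Figure D3:**
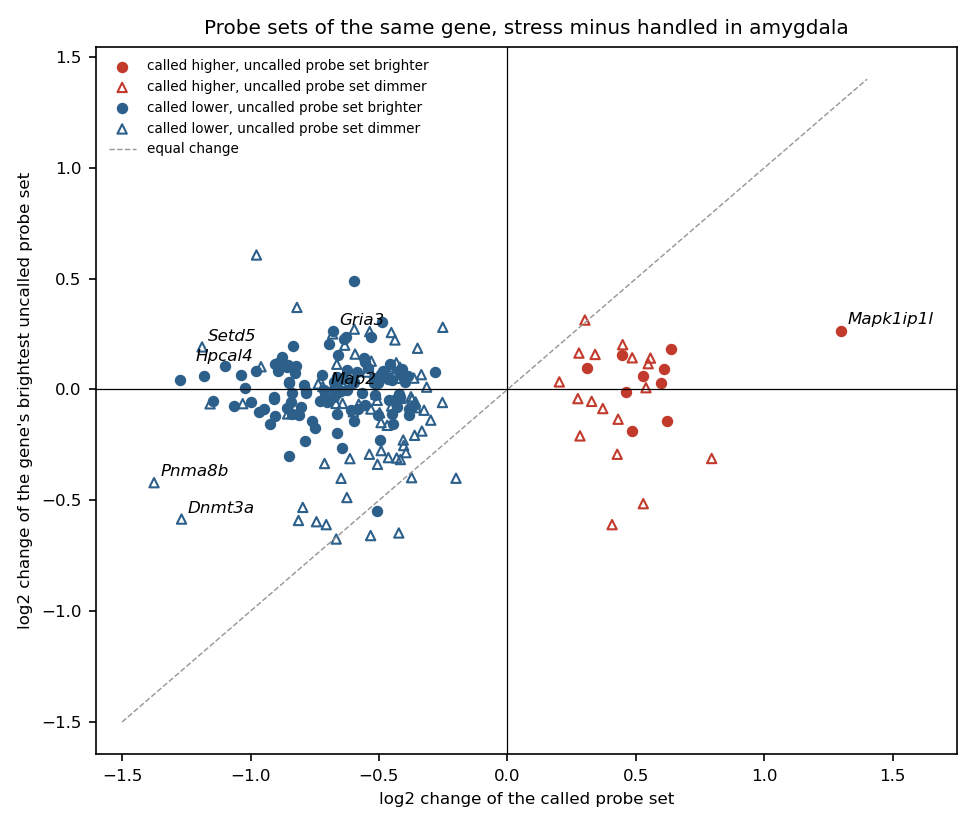
For each gene with a called and an uncalled tested probe set, the x axis is the log2 change of the called probe set and the y axis that of the brightest uncalled one (stress minus handled). Filled circles mark uncalled probe sets brighter than the called one, and most points lie near 0 on the y axis instead of on the dashed line of equal change.

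Genes with at least 2 called probe sets numbered 19 for decreases and 0 for increases. Stox2, a winged-helix protein, had 34.8, 48.6 and 82.6 on stress arrays against 128, 135 and 141 on handled arrays on its brighter probe set. The log2 changes of its 2 probe sets were -1.13 ± 0.20 and -1.17 ± 0.18. Atrx, a chromatin remodeller of the SWI/SNF family, fell on 3 probe sets (-1.15 ± 0.21, -0.84 ± 0.19 and -0.57 ± 0.14), and so did the histone methyltransferase Ash1l (-0.89 ± 0.20, -0.70 ± 0.13 and -0.54 ± 0.14). Of these 6, 1 of Ash1l was called in all 16 settings and 1 of Atrx in the 15 in which it was bright enough to be tested. Xiap, an inhibitor of caspases, fell by 0.81 ± 0.19 and 0.66 ± 0.11, and Mef2a, a transcription factor driven by neuronal activity, by 0.98 ± 0.18 and 0.58 ± 0.10. Tbl1x, of the nuclear receptor corepressor complex, fell by 0.62 ± 0.10 and 0.64 ± 0.16, and the ubiquitin ligase Cbl by 0.63 ± 0.15 and 0.60 ± 0.14, neither Cbl call holding without stress array 2, handled array 2 or handled array 3. Dcaf6, a substrate receptor for a cullin ligase, fell by 0.65 ± 0.13 and 0.57 ± 0.12, both lost without stress array 2. In Stox2 and Xiap every tested probe set was called. Atrx, Ash1l, Mef2a, Tbl1x and Cbl each had an uncalled probe set brighter than that of their largest fall. Its log2 changes were -0.053, 0.082, 0.084, 0.049 and 0.088, in that order. The brightest uncalled probe set of Dcaf6 was dimmer and changed by -0.40.

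Gene lists were counted with 1 probe set per gene, its brightest. Lists and members were chosen with earlier results of these data known. A share above that of all genes is therefore no independent evidence about a pathway. On that count 50 of 10256 genes were called higher (0.488%) and 146 lower (1.42%), and the median change of all genes was 0.024. Of all genes 56.3% were above 0 and 43.7% below. Among 23 AMPA and NMDA receptor genes and their partners, 4 fell, none rose and the median was -0.00062. Gria1, the GluA1 subunit of AMPA receptors, had 526, 581 and 432 on stress arrays against 974, 908 and 1313 on handled arrays, so that every stress array was below every handled one (log2 change -1.02 ± 0.12, adjusted p = 5.84e-05). Grin2a, a synaptic NMDA receptor subunit, had 552, 629 and 783 on stress arrays against 967, 1071 and 1079 on handled arrays (log2 change -0.67 ± 0.10, adjusted p = 0.00034). Grin2b, the subunit that predominates early in development, had 149.5, 151 and 262 on stress arrays against 324, 333 and 368 on handled arrays (log2 change -0.86 ± 0.17, adjusted p = 0.00592). Grin3a, which lowers calcium entry, fell by 0.80 ± 0.17. The first 3 were called in all 16 settings and Grin3a was lost without stress array 2 or handled array 3. Gria2, which makes AMPA receptors impermeable to calcium, had 3013, 2943 and 2973 on stress arrays against 3049, 3047 and 3039 on handled arrays (log2 change -0.033 ± 0.051), and the obligatory NMDA subunit Grin1 had 430.0, 383 and 524 on stress arrays against 453, 486 and 392 on handled arrays (-0.00046 ± 0.11). Gria3 fell by 0.68 ± 0.11 on a dimmer probe set, while its brightest had 1776, 2022 and 1511 on stress arrays against 1445, 1277 and 1691 on handled arrays and was not called (log2 change 0.26 ± 0.10, adjusted p = 0.239).

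In the list of kainate and metabotropic receptors and Homer proteins, 1 of 12 rose and 1 fell. Grm5, the mGluR5 receptor, fell by 0.81 ± 0.17, and Homer3, a postsynaptic scaffold that binds such receptors, rose by 0.79 ± 0.17 from dim values (83.6, 66.5 and 63.5 on stress arrays against 48.8, 34.5 and 22.2 on handled arrays). Neither call held without handled array 3, nor Homer3 without stress array 1 or Grm5 without stress array 2. The brightest uncalled probe sets of Homer3 and Grm5 were dimmer and changed by -0.31 and -0.59. On the GABA side, 3 of 17 genes fell and none rose, and without handled array 3 none was called. Gabra2, a GABA-A receptor subunit tied to anxiety, had 509.9, 620.4 and 676 on stress arrays against 839, 889 and 1125 on handled arrays (log2 change -0.64 ± 0.13, adjusted p = 0.00613). Gabbr2, a GABA-B receptor subunit, had 1404, 1134 and 1367 on stress arrays against 1529, 1657 and 1730.2 on handled arrays (log2 change -0.33 ± 0.069, adjusted p = 0.00799). Gad2, which makes GABA, fell by 0.67 ± 0.18, while its paralog Gad1 had 2500.2, 2526 and 2294 on stress arrays against 2369.9, 2544 and 2552 on handled arrays (-0.029 ± 0.052).

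Postsynaptic scaffolds and spine proteins had 2 of 30 genes lower and none higher. Pak3, a kinase that shapes spines, had 585, 605 and 754 on stress arrays against 1036, 1021 and 1159 on handled arrays (log2 change -0.72 ± 0.11, adjusted p = 0.00064) and was called in all 16 settings. Trio, a guanine nucleotide exchange factor, fell by 0.58 ± 0.12, lost without handled array 3. The brightest uncalled probe sets of Pak3 and Trio were dimmer and changed by 0.013 and -0.066. Of 37 vesicle and SNARE genes, 2 fell and 1 rose. Cplx2, which clamps and times vesicle fusion, had 665, 433 and 544 on stress arrays against 863, 876 and 964 on handled arrays (log2 change -0.72 ± 0.12, adjusted p = 0.000979). The vesicle protein Sv2b fell by 0.58 ± 0.087 on one probe set and 0.29 ± 0.065 on a brighter one, and Syt15 rose by 1.08 ± 0.25 from dim values. This list had 1 called gene without stress array 2, handled array 1 or handled array 3.

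**Figure D4:**
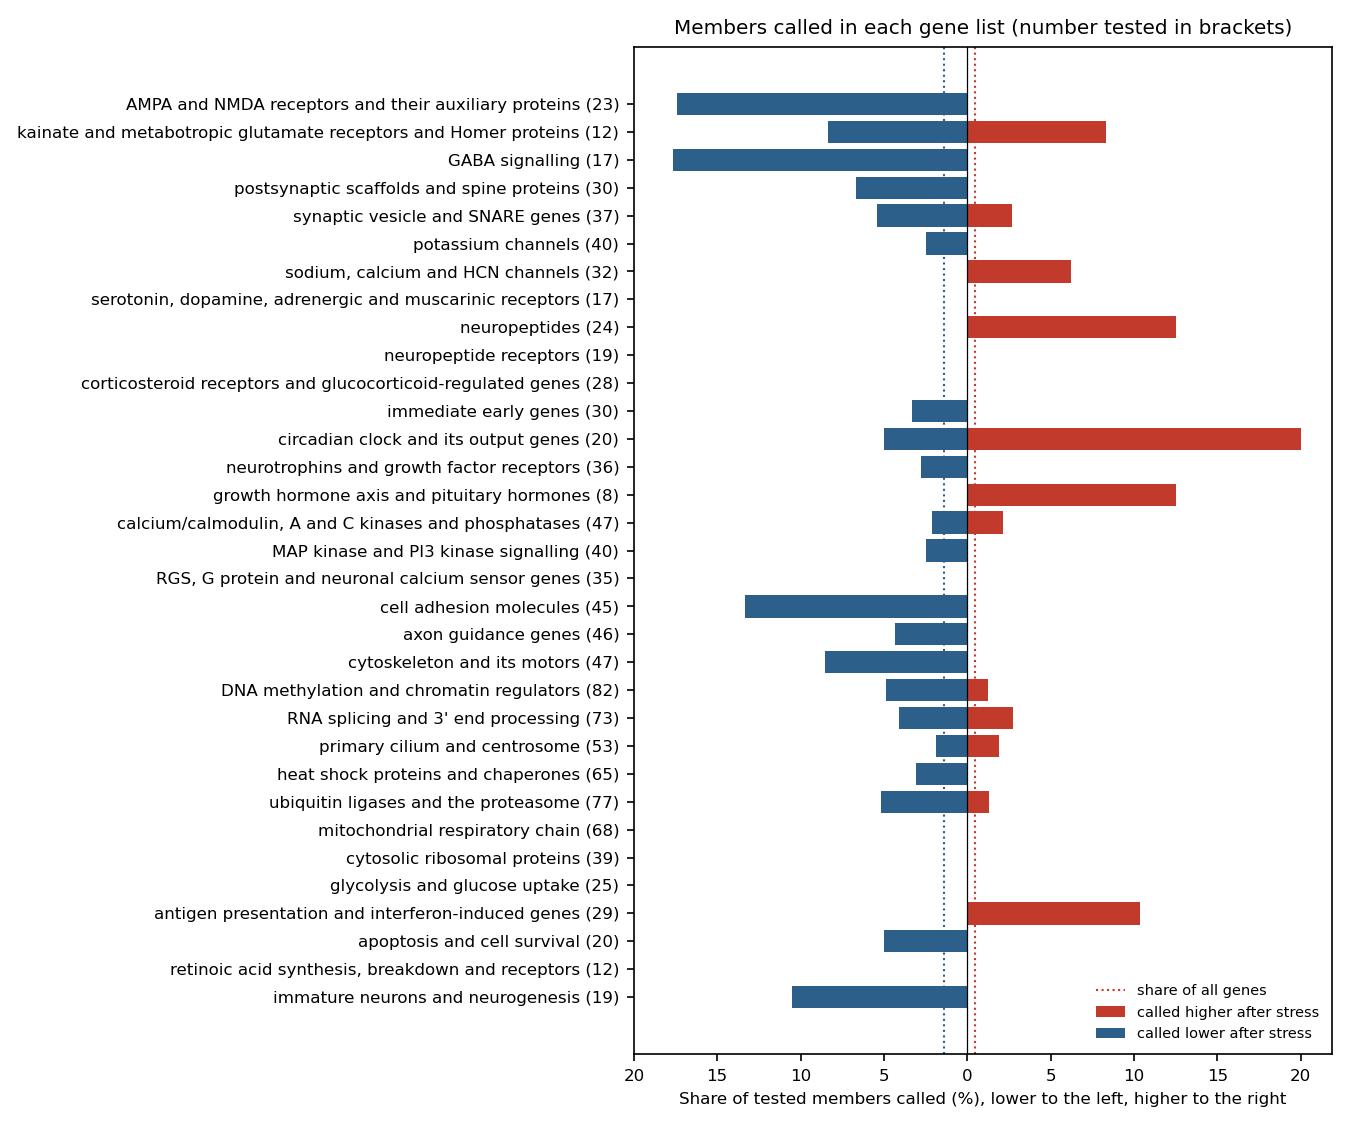
Share of tested members called higher (red, to the right) and lower (blue, to the left) after stress in each gene list, counted with the brightest probe set of each gene and with the number tested in brackets. Dotted lines mark the share of all 10256 genes, 0.488% higher and 1.42% lower. The AMPA and NMDA receptor, GABA and adhesion lists lie on the lower side, and clock, peptide and interferon lists on the higher side. Lists and members were chosen with earlier results of these data known.

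Cell adhesion genes had 6 of 45 lower and none higher (median -0.019). Lsamp, a surface protein of limbic neurons, had 486, 629.8 and 583 on stress arrays against 981, 1079 and 1277 on handled arrays (log2 change -0.95 ± 0.10, adjusted p = 6.93e-06). Its call held in all 16 settings. Reln, a secreted guide of neuronal position and synapses, had 221, 205 and 196 on stress arrays against 293, 308 and 278 on handled arrays (log2 change -0.47 ± 0.074, adjusted p = 0.000804). The latrophilin Adgrl3 fell by 0.61 ± 0.15, the presynaptic neurexin Nrxn3 by 0.46 ± 0.12, and the adhesion molecules Ncam1 and Chl1 by 0.40 ± 0.11 and 0.34 ± 0.067. Without handled array 3 the list kept 2 calls, without stress array 2 or handled array 2 it had 3. In the cytoskeleton list 4 of 47 fell and none rose, led by the vesicle motor Myo5a with 737, 593 and 629 on stress arrays against 1013, 989 and 1302 on handled arrays (log2 change -0.73 ± 0.10, adjusted p = 0.000306). The kinesin Kif5c fell by 0.43 ± 0.093, the actin-binding Marcks by 0.30 ± 0.073 and the microtubule protein Map1b by 0.20 ± 0.053. This list had 1 call without handled array 3 and 2 without stress array 2, stress array 3 or handled array 1.

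Of 82 DNA methylation and chromatin genes, 4 fell and 1 rose. Besides Dnmt3a and Setd5, the histone methyltransferases Nsd3 and Nsd2 fell, with 213, 201 and 216 on stress arrays against 309, 324 and 309 on handled arrays for Nsd3 (log2 change -0.55 ± 0.10, adjusted p = 0.00198) and a change of -0.46 ± 0.083 for Nsd2. The brightest uncalled probe sets of Setd5, Nsd3 and Nsd2 were dimmer and changed by 0.19, 0.078 and 0.10. The deacetylase Hdac3 rose by 0.38 ± 0.10, a call kept in 1 of the 6 fits that left out an array. A further 5 chromatin genes, Ash1l, Atrx, Chd7, Smarca2 and Smarca4, fell only on a probe set that was not their brightest. RNA splicing and processing had 2 of 73 higher and 3 lower, ubiquitin and proteasome genes 1 of 77 higher and 4 lower, and chaperones none of 65 higher and 2 lower. Among them the splicing protein Srrm2 fell by 0.44 ± 0.085, the neuronal RNA-binding protein Elavl2 by 0.37 ± 0.067, the ligases Herc1 and Fbxw7 by 0.98 ± 0.14 and 0.74 ± 0.13, and the stress sensor Atf6 by 0.65 ± 0.13. The brightest uncalled probe sets of Srrm2, Elavl2 and Fbxw7 were dimmer and changed by 0.075, -0.40 and -0.60. The splicing list had 1 call without handled array 3, 2 without stress array 2 or handled array 2, and 3 without handled array 1.

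Neuropeptide genes were called in the upward direction. Of 24 neuropeptide genes, 3 rose and none fell. Penk, which encodes proenkephalin, had 2314, 1972 and 2065 on stress arrays against 1525, 1719 and 1548 on handled arrays (log2 change 0.40 ± 0.092, adjusted p = 0.0179). Npy, neuropeptide Y, which reduces anxiety in the rodent amygdala, had 827, 923 and 774 on stress arrays against 636, 654 and 625 on handled arrays (log2 change 0.39 ± 0.083, adjusted p = 0.0108). Pnoc, prepronociceptin, rose by 0.76 ± 0.19 from dim values. Without stress array 1, handled array 1 or handled array 3, 1 of these calls was left. Crh, the corticotropin-releasing hormone of central amygdala neurons, was near the floor, with 44.3, 21.8 and 38.1 on stress arrays against 52.0, 35.8 and 33.5 on handled arrays (-0.17 ± 0.19). Neuropeptide receptors had 0 called genes among 19 by limma, and 0 with an unadjusted p under 0.05, where 12.8% of all genes had one.

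Of 20 clock and clock output genes, 4 rose and 1 fell, with 10 above and 10 below 0 and a median of -0.0029. Nr1d2, the repressor REV-ERB beta, had 736, 720.2 and 689 on stress arrays against 588, 569 and 603 on handled arrays (log2 change 0.28 ± 0.06, adjusted p = 0.0109). Dbp, a transcription factor under direct clock control, had 370.5, 447 and 388 on stress arrays against 307, 316 and 301 on handled arrays (log2 change 0.36 ± 0.092, adjusted p = 0.0344). Bhlhe41, a repressor also called DEC2, had 764, 803 and 757 on stress arrays against 671, 623 and 617 on handled arrays (log2 change 0.28 ± 0.069, adjusted p = 0.0326). Npas2, which partners Bmal1, rose by 0.34 ± 0.089, and Hlf, of the same family as Dbp, fell by 0.42 ± 0.093. A dimmer, uncalled Hlf probe set changed by 0.10. The core genes Per2 and Bmal1 had changes of 0.0017 ± 0.079 and 0.079 ± 0.14. These calls were fragile: 1 of 5 was left without handled array 2 or 3, 2 without stress array 1 or 2, and 0 with the spread estimated from the 6 amygdala arrays alone. No source used here states the time of day of dissection. An E-box CACGTG was in 6.65% of all promoters and 9.76% of those of tested genes. It was in 6 of 50 found for genes called higher and 23 of 197 for genes called lower. Of the 20 promoters found for listed clock genes 4 held one, and of the 4 found for the 5 called clock genes 1 did. That promoter, of Bhlhe41 at chr4:180569306-180569605 on the minus strand, is printed in the direction of the gene with the E-box in capitals, 48 bases before the start.
Bhlhe41: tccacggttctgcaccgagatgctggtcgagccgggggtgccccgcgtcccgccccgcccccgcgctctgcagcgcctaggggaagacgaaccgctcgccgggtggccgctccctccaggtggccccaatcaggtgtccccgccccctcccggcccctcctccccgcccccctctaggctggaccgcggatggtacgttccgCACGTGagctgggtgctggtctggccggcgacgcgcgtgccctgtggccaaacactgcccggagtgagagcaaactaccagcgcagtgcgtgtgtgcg

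Antigen presentation and interferon-induced genes had 3 of 29 higher and none lower, with a list median of 0.21, and 11 members were higher without overlap, where 9.17% of all genes were. Rtp4, an interferon-induced chaperone of receptors, had 68.3, 56.7 and 56.6 on stress arrays against 12.7, 23.7 and 23.9 on handled arrays (log2 change 1.10 ± 0.20, adjusted p = 0.00232). The class I genes RT1-T24-3 and RT1-T24-4 rose by 0.72 ± 0.16 and 0.65 ± 0.17, but rat class I genes are near copies of each other and the probes may not tell them apart. Known interferon targets that did not pass included Ifit2 at 0.53 ± 0.19, Isg15 at 0.52 ± 0.27 and Ifi27 at 0.24 ± 0.069, and the light chain B2m had 2293, 2334 and 2323 on stress arrays against 2207, 2071 and 2096 on handled arrays. Without stress array 1 or handled array 2, 1 of the 3 calls was left.

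Corticosteroid receptors and their known targets showed no called gene. Of 28 such genes 0 passed by limma, 3 had an unadjusted p under 0.05 (1 higher, 2 lower), the median was -0.000145, and 14 were above and 14 below 0. The glucocorticoid receptor Nr3c1 had 426, 403 and 358 on stress arrays against 371, 361 and 334 on handled arrays (0.14 ± 0.09), and the mineralocorticoid receptor Nr3c2 had 274, 265 and 284 on stress arrays against 286, 276 and 252 on handled arrays (0.014 ± 0.075). Fkbp5, a chaperone induced by glucocorticoids, had 259.6, 177 and 185 on stress arrays against 174, 177 and 185 on handled arrays, with only stress array 1 above the handled range (0.18 ± 0.12). Sgk1, a kinase induced by glucocorticoids, had 309, 288 and 299 on stress arrays against 287, 270.2 and 264 on handled arrays, without overlap but short of the threshold (log2 change 0.12 ± 0.067, adjusted p = 0.459). Of 30 immediate early genes 21 were below 0, where 43.7% of all genes were. Only 1 was called lower on its brightest probe set and none higher. This was Jund, a less inducible member of the Jun family, with 1782, 1854 and 2160.3 on stress arrays against 2793, 2842 and 3089 on handled arrays (log2 change -0.59 ± 0.074, adjusted p = 7.41e-05) and called in all 16 settings, while the scaffold gene Homer1 fell by 0.37 ± 0.082 on a dimmer probe set. Fos had 51.5, 51.5 and 54.2 on stress arrays against 90.4, 74.6 and 92.8 on handled arrays, also without overlap (log2 change -0.57 ± 0.18, adjusted p = 0.106). Bdnf, a neurotrophin tied to stress-related growth, had 167, 199 and 227 on stress arrays against 219.7, 210.5 and 222 on handled arrays and overlapped (-0.14 ± 0.11).

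Of the potassium channels 2.5% were called and of the sodium, calcium and HCN channels 6.25%, where 1.91% of all genes were. The potassium channels had 1 of 40 lower, Kcna2, a delayed rectifier of axons, at 785, 802 and 688 on stress arrays against 971, 969.8 and 1002 on handled arrays (log2 change -0.37 ± 0.065, adjusted p = 0.00231), and none higher. Sodium, calcium and HCN channels had 2 of 32 higher, Scn4b and Itpr1, the calcium release channel of the endoplasmic reticulum (0.21 ± 0.055). Without handled array 1, 2 or 3 or stress array 2, only 1 of the 2 was called. Ryr2 of the same list fell on a dimmer probe set (log2 change -0.90), while its brightest changed by -0.12 and was not called. In the list of serotonin, dopamine, adrenergic and muscarinic receptors, none of 17 was called by limma on its brightest probe set. An unadjusted p under 0.05 was found for 3, all higher, although 6 were higher without overlap, where 9.17% of all genes were. Among these 6 were Htr2c with 973, 1038 and 933 on stress arrays against 802, 838 and 877 on handled arrays (0.22 ± 0.094) and Drd2 with 80.4, 96.4 and 77.9 on stress arrays against 53.5, 52.6 and 51.5 on handled arrays (0.55 ± 0.31). Cnr1 of this list fell on a dimmer probe set (log2 change -0.84), while its brightest changed by -0.055. The respiratory chain (68 genes, median 0.030), glycolysis (25 genes, 0.073) and ribosomal proteins (39 genes, -0.071) had no called member by limma, with 12, 5 and 5 members under an unadjusted p of 0.05. The authors' scaling holds the mean intensity of each array fixed, so such small shared shifts of bright genes have no fixed zero.

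Markers of other cells were set beside these changes. In bulk tissue, fewer cells of a type and less RNA per cell cannot be told apart. Of 20 striatal neuron markers 19 were above 0, where 56.3% of all genes were. Their median change was 0.33, and 3 were called higher, Scn4b, Ppp1r1b and Penk, all given above. The summed intensity of the 21 striatal markers on the array was 9878 to 10404 on stress arrays and 8428 to 8789 on handled arrays, without overlap. Without the 3 called genes, the sum of the other 18 was 6879 to 7480 on stress arrays and 6385 to 6564 on handled arrays, also without overlap. The receptors Adora2a (134, 168 and 142 on stress arrays against 80.4, 115 and 85.6 on handled arrays) and Drd2 of striatal projection neurons were not called, at 0.59 ± 0.28 and 0.55 ± 0.31, and Drd1 had 330.4, 312 and 293 on stress arrays against 263, 302 and 297 on handled arrays (0.11 ± 0.14). For Adora2a and Drd2 the stress and handled arrays did not overlap, and their errors include the scatter of hippocampus and cortex arrays. The part of striatal tissue in the changes of Scn4b, Ppp1r1b and Penk was not tested. All 9 markers of glutamatergic neurons were below 0 (median -0.16), where 43.7% of all genes were, with Grin2b and the transcription factor Neurod2 called lower. Neurod2 had 88.2, 116 and 88.9 on stress arrays against 193, 171 and 141 on handled arrays, and its call was lost without handled array 1 or 2. The vesicular transporter Slc17a7 had 1312, 1315 and 1534 on stress arrays against 1397, 1482 and 1279.6 on handled arrays (-0.00066 ± 0.079). The summed glutamatergic markers were 8616 to 9289 on stress arrays and 9258 to 9825 on handled arrays, which overlapped. On their brightest probe sets, markers of oligodendrocytes (22 tested), astrocytes (17), microglia (14) and endothelium (18) had no called gene by limma. Those under an unadjusted p of 0.05 numbered 2, 5, 0 and 4, and the marker sums of these cell types overlapped between groups. The astrocyte markers Aqp4 and Plpp3 fell on a dimmer probe set, with log2 changes of -0.83 and -0.64. Their brightest probe sets changed by 0.075 and 0.23.

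Pituitary and choroid plexus markers bear on Gh1, since growth hormone is made in bulk by the pituitary. The summed intensity of 11 pituitary markers was 873 to 1008 on stress arrays and 708 to 866 on handled arrays, and without Gh1 itself 643 to 812 on stress arrays and 605 to 793 on handled arrays, which overlapped. Prl, prolactin, had 68.1, 66.3 and 83.5 on stress arrays against 28.2, 5.09 and 41.9 on handled arrays, below the brightness filter, and Cga, the common alpha subunit of pituitary hormones, had 48.7, 29.7 and 45.9 on stress arrays against 17.3, 4.89 and 19.6 on handled arrays. Pou1f1, the transcription factor of growth hormone cells, was at 3.27, 1.53 and 1.86 on stress arrays against 0.939, 3.72 and 9.08 on handled arrays. The summed 16 choroid plexus and ependyma markers were 1291 to 1321 on stress arrays and 1104 to 1144 on handled arrays. The part of either tissue in the Gh1 change was not tested. Hbb, beta globin, fell, with 1799.6, 1489 and 1529 on stress arrays against 2031, 2258 and 2104 on handled arrays (log2 change -0.41 ± 0.074, adjusted p = 0.00251), and 0 of the tested markers of any cell list was at exactly 0.

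The stress effect in amygdala was set against the effects in hippocampus and cortex by the interaction of region and treatment. It differed in 9 probe sets from hippocampus (0.0483%) and in 24 from cortex (0.129%). Gh1 rose in amygdala while its change in hippocampus was -1.09 ± 0.17 and in cortex -0.21 ± 0.17, and both differences passed, at 2.16 ± 0.24 and 1.28 ± 0.24. Lsamp and Ahi1 fell more in amygdala than in either region, with changes of -0.20 ± 0.10 in hippocampus and 0.0081 ± 0.10 in cortex for Lsamp, and -0.21 ± 0.12 and -0.033 ± 0.12 for Ahi1. Gria1 changed by -0.26 ± 0.12 in hippocampus and 0.10 ± 0.12 in cortex, and only the difference from cortex passed (-1.13 ± 0.18). Of the 362 called decreases, 321 were below 0 in hippocampus and 307 in cortex, with median changes of -0.23 and -0.16, where 57.3% and 54.4% of all tested probe sets had the sign they had in amygdala. Of these decreases, 22 were also called lower in hippocampus and 21 in cortex, where 0.258% and 0.268% of all tested probe sets were. In cortex 22 were called in either direction. The regions share 1 spread per probe set in the fit, so a small spread favours calls in all of them. These counts and shares are therefore not an independent comparison. Of the 85 called increases, 61 were above 0 in hippocampus and 55 in cortex, with median changes of 0.090 and 0.082.

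**Figure D5:**
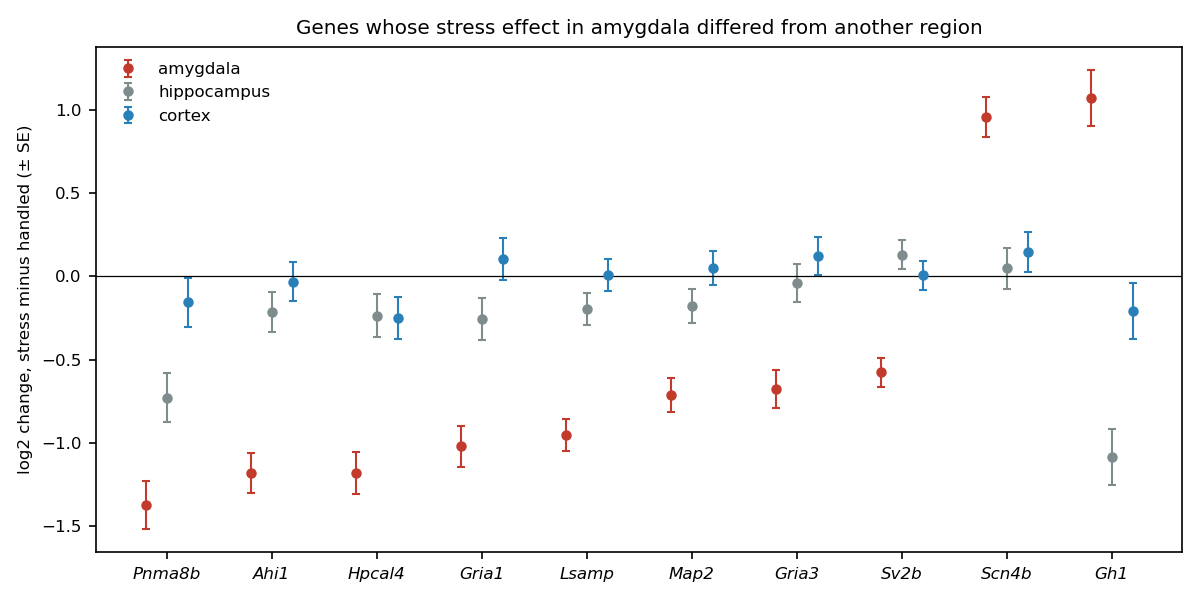
log2 change, stress minus handled, with limma's standard error, in amygdala, hippocampus and cortex for the 10 named genes whose amygdala effect differed from that in another region by the interaction test (3 arrays per group). Gh1 lies above 0 in amygdala and below it in hippocampus, and the 8 genes on the left lie below 0 in amygdala.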

How the data were processed

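The authors deposited 1 linear intensity for each probe set on each array; their summarising software is not given in the sources used here. A mean trimmed by 2% per tail came to about 150.0 on all 18 arrays of the deposited intensities, so the values had been scaled to a common mean before they were deposited and were not scaled again. The number of arrays limits the precision. Of 31099 probe sets, 57 were controls and were left out. Symbols came from the platform annotation, updated through RefSeq gene identifiers: 20832 probe sets had 1 symbol, 436 several and 9831 none.

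Group means of log2(intensity + 16) came from a limma 3.58.1 fit (R 4.3.3) to the 18 arrays together (12 residual degrees of freedom), for the 18625 probe sets at or above the 40th percentile of mean intensity. It used a variance trend and two-sided tests adjusted by Benjamini-Hochberg over all of them. On simulated data for this comparison with 18625 probe sets, 38% of changes of 0.5 log2 units and 88% of changes of 1 unit were recovered, and 5.97% of calls were false. The simulated errors were independent, with 1 spread per probe set shared by the 18 arrays. Array weights from limma ran from 0.35 to 1.17 in amygdala and from 1.19 to 1.85 in cortex, so these rates may not hold for amygdala. Per-array errors are standard deviations (n = 3).

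Named genes were the 12 per direction with the largest change among called probe sets without overlap and with a mean of at least 100 in the brighter group, the 12 per direction with at least 2 called probe sets, called members of 33 pathway and 17 marker lists, and Nr3c1, Nr3c2, Fkbp5, Sgk1, Crh, Bdnf and Fos. Members and lists were chosen with earlier results of these data known. Genes named outside this rule (Id2, and uncalled members for contrast) were chosen after their values were seen. Promoters were from RefSeq. The 16 alternatives changed the offset, filter, scaling, arrays, trend, weights, or left out 1 array. Same-numbered stress and handled arrays did not deviate together (r between -0.027 and -0.0069), so they were not treated as pairs. Figures were drawn with matplotlib 3.10.9 in Python 3.11.15.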

Additional observations from a re-analysis of the deposited data

Results flagged for a closer look

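For 10 named genes the stress effect in amygdala differed from that in another region by limma's interaction test (adjusted p under 0.05, 3 arrays per group). Against hippocampus, the differences in log2 effect (amygdala minus hippocampus) were 2.16 for Gh1, 0.91 for Scn4b, -0.97 for Ahi1, -0.76 for Lsamp and -0.71 for Sv2b. Against cortex, the differences (amygdala minus cortex) were 1.28 for Gh1, -1.22 for Pnma8b, -1.15 for Ahi1, -1.13 for Gria1, -0.96 for Lsamp, -0.93 for Hpcal4, -0.80 for Gria3 and -0.76 for Map2. The Gria3, Map2 and Hpcal4 values are each from 1 called probe set, and each gene has a brighter one that was not called in amygdala.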

How the results depend on the processing

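Counts of calls changed more with the choice of arrays than with the offset, the brightness filter or the scaling. Fitting only the 6 amygdala arrays gave 186 called probe sets (21 higher, 165 lower), 134 genes and 35 list members, against 447 (85 and 362), 310 and 70. A replicate block on those arrays, which pairs the arrays by number, gave 217 (24 and 193), 149 genes and 31 list members. Their numbers are not known to mark a shared animal or day. Without the variance trend there were 50 probe sets called higher, 206 genes and 40 list members. Leaving out 1 array at a time gave 197 to 535 called probe sets, 34 to 99 higher, 163 to 439 lower, 140 to 367 genes and 33 to 72 list members. Lower counts came without handled array 3 (197 probe sets, 34 higher) and without stress array 2 (284 and 34), and without handled array 1 or 2 there were 50 and 48 higher. Of the 447 called probe sets, 190 remained without handled array 3 and 246 without stress array 2. Lower calls made up 81.0% of all calls and 86.6% with median centring. Of 138 named called probe sets, 44 were called in every setting run (39 in all 16, and 5 in 15, being too dim for the 60th-percentile filter), 94 were lost in at least 1 and 0 reversed. The uncalled genes Nr3c2 and Crh changed sign: Nr3c2 was -0.0026 with median centring and between -0.034 and 0.052 with an array left out, and Crh lay between -0.30 and 0.031 with an array left out.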

Other observations

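The neurogenesis list had 2 of 19 genes lower and none higher, with a median of -0.14. Ccnd2, a cyclin of dividing progenitors, had 230.5, 256 and 323 on stress arrays against 386, 449 and 406 on handled arrays (log2 change -0.60 ± 0.12, adjusted p = 0.00618), and was called in all 16 settings. Neurod2, the other, was lost without handled array 1 or 2. Growth factor genes had 1 of 36 lower, Bmpr2, a receptor for bone morphogenetic proteins, with 350.0, 418 and 625 on stress arrays against 690.3, 745 and 768 on handled arrays, a call that was lost in 5 of the 6 fits that left out an array. Calcium, A and C kinases had 1 of 47 higher, Ppp1r1b, and 1 lower, the protein kinase C isoform Prkce (-0.31 ± 0.066). Axon guidance genes had 2 of 46 lower, Epha5 (-0.46 ± 0.12), an ephrin receptor of limbic neurons, and Sema6a (-0.45 ± 0.10), a transmembrane semaphorin, and without handled array 1 or 3 or stress array 1 neither was called. A dimmer, uncalled Sema6a probe set changed by 0.093.

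The remaining lists held few called genes. MAP kinase and PI3 kinase signalling had 1 of 40 lower, Creb1, apoptosis 1 of 20 lower, Xiap, and the primary cilium list 1 of 53 higher, Gas8, and 1 lower, Ahi1. Gh1 was the called member among 8 genes of the growth hormone axis. On their brightest probe sets, RGS, G protein and calcium sensor genes (35 tested) and retinoic acid genes (12) had 0 called by limma. Those with an unadjusted p under 0.05 numbered 9 and 3. Hpcal4 and Rgs17 of the first list fell on a dimmer probe set, with log2 changes of -1.18 and -0.64. Among neocortical markers 1 of 19 was higher, Pcp4, a calmodulin regulator (0.27 ± 0.05), and 1 lower, the transcription factor Etv1 (-0.32 ± 0.078), and hippocampal markers had 1 of 12 higher, Homer3. Interneuron markers had 1 of 16 higher, Npy, and 2 lower, Gad2 and Reln. Pan-neuronal markers (15 tested), oligodendrocyte precursors (6), meningeal fibroblasts (15), choroid plexus and ependyma (9), and thalamus and hypothalamus (9) had 0 called by limma on their brightest probe sets. Those under an unadjusted p of 0.05 numbered 4, 2, 1, 2 and 0. The pan-neuronal marker Map2 fell on a dimmer probe set (log2 change -0.71).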
